A study of Mus musculus with 3 samples.

Results

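The OAS family of the mouse was read here as 7 genes, Oas1a, Oas1b, Oas1g, Oas2, Oas3, Oasl1 and Oasl2, together with their 30 annotated transcripts, out of 55536 annotated genes. They were picked by gene symbol in the GENCODE M21 annotation of mm10, from a list chosen with earlier results of these data known. The RNA came from C57BL/6J macrophages grown out of bone marrow and given lipid A at 100 ng/ml for 120 min. Lipid A is the part of bacterial lipopolysaccharide that the receptor TLR4 recognises. RNA of the cytosol was depleted of ribosomal RNA and sequenced as total RNA, from 1 µg per library. There is 1 group of 3 libraries, numbered 1 to 3 as biological replicates, and all of them received lipid A. No untreated cells, later time or nuclear fraction were analysed here, so every value below is a level in stimulated cells, not a response. The replicates carry 1 shared donor identifier in the labels, so an SD or p-value measures only how far these 3 samples differ, and that difference may be technical.

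As background, 2′-5′ oligoadenylate synthetases bind double-stranded RNA and join ATP into short oligoadenylates with unusual linkages. Those oligoadenylates act as messengers of the antiviral response. Type I interferon raises most genes of the family, and macrophages make interferon beta soon after TLR4 is engaged. The mouse has several copies of Oas1 where humans have 1, and some of these copies have no synthetase activity. Oasl1 and Oasl2 carry ubiquitin-like domains besides the synthetase fold. In mice, Oasl2 keeps synthetase activity, whereas Oasl1 lacks it and is known to hold back translation of Irf7 mRNA.

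The libraries held 31152786, 114031592 and 59693298 expected counts in replicates 1, 2 and 3. All 8 macrophage markers were detected, with a summed level of 4787 to 5422 TPM. None of the 14 markers of T, B, natural killer, conventional dendritic cells and fibroblasts reached 1 TPM in every library. The 4 plasmacytoid dendritic and 3 neutrophil markers each had 1 detected gene, Tcf4 and Ngp, while Siglech and Camp did not reach that level and Ly6g had 0 counts. Replicate 2 stood apart in nuclear and mitochondrial RNA: Malat1, a nuclear noncoding RNA, had 741, 178 and 812 TPM, and mitochondrially encoded RNA made up 1.80%, 0.376% and 1.41% of TPM in replicates 1, 2 and 3. In bulk RNA, fewer cells that express a gene and less of its RNA per cell cannot be told apart.

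Oas2, Oas3 and the Oas1 genes form a cluster of 10 genes over 191 kb (chr5:120730333-120921652, mm10). Oasl2 and Oasl1 lie side by side, with 11.0 kb between them, and end 5792 kb before it. Neighbours in the cluster had unlike levels: Oas1a averaged 31.3 TPM, while Oas1d, the gene beside it, had 4 counts in replicate 2 and 0 in replicates 1 and 3.

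**Figure D1:**
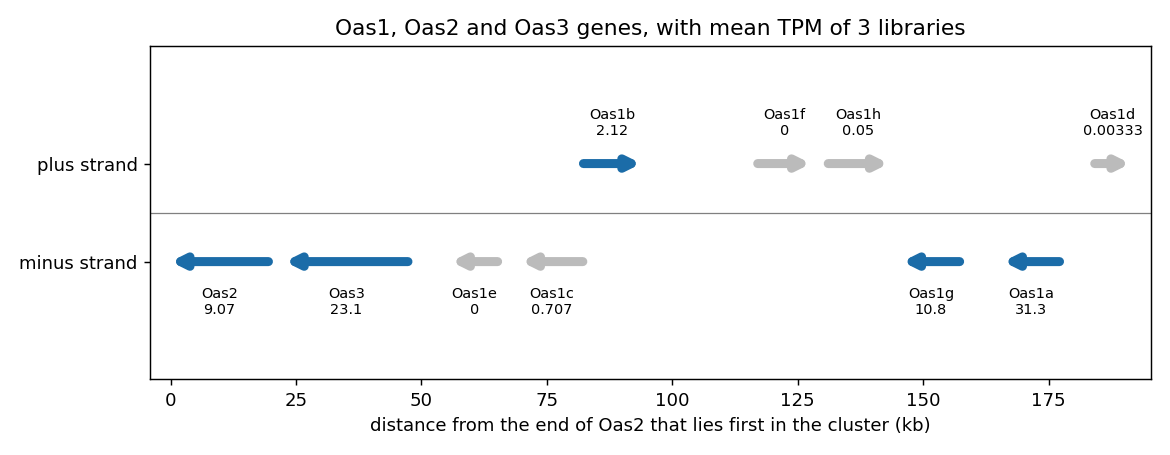
Map of the Oas cluster on chromosome 5, drawn to scale as distance in kb from the end of Oas2 that opens the cluster, with genes of the plus strand above and of the minus strand below the line. Arrows point in the direction of transcription, blue arrows are the family members studied and grey ones the other Oas1 genes, and the number under each name is its mean TPM over 3 libraries. Oas3, at 23.1 TPM, and Oas1a, at 31.3 TPM, are the highest of the 10.

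The stretches before the starts of Oas1a, Oas1g, Oas1b and Oas3 are shown first, because the members whose levels differ most within the cluster share one run of bases there. Capitals mark matches to GAAANNGAAA, the core of the interferon-stimulated response element, which lies before many interferon-induced genes, searched on both strands with overlapping matches counted. Starts are those of the RefSeq windows for Oas1a, Oas1g and Oas3, and of GENCODE for Oas1b. For Oas1a and Oas3 the GENCODE gene start lies a few bases from the start used. The sequences come from RefSeq windows of GRCm38.p6, the assembly of mm10, each 5′ to 3′ along the gene's own strand. Each ends at the base before the start used. They are chr5:120907526-120907625 on the minus strand for Oas1a, chr5:120887614-120887713 on the minus strand for Oas1g, chr5:120777660-120777759 on the minus strand for Oas3, and chr5:120812515-120812634 on the plus strand for Oas1b, which is the whole stretch between the divergent starts of Oas1c and Oas1b.
Oas1a: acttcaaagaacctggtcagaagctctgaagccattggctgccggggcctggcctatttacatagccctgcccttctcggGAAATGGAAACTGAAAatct
Oas1g: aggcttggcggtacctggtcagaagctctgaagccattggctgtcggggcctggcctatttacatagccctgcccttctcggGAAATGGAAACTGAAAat
Oas1b: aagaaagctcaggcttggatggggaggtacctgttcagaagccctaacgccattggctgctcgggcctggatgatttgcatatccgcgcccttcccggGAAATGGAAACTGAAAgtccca
Oas3: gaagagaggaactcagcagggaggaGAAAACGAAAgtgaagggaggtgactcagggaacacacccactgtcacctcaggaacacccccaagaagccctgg

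The same 16 bases, a pair of overlapping matches, stood before Oas1a, Oas1g and Oas1b, and began 20, 18 and 22 bases before the start. Over the last 100 bases, Oas1a and Oas1g aligned with 92 identical bases, 6 mismatches and 4 gaps. The run occurs in 7 of 32851 windows (0.0213%). The only other gene symbols whose windows hold it are Apol9a, Apol9b and Oas1c, the last with a window that covers the start of Oas1b. The run was read from the members' own stretches before it was counted, so this share is not a test. The shorter core is in 1131 windows (3.44%), each window reaching from 250 bases before to 50 bases after a start. Of the 5 members with a window of their own, Oas1a, Oas1g and Oas3 hold the core and Oasl1 and Oasl2 do not; Oas2 and Oas1b have none. Oas1a averaged 31.3 TPM and Oas1b 2.12 TPM with the same 16 bases before their starts.

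All 7 members were detected, meaning at least 1 TPM in every library. That held for 15.7% of the 55536 annotated genes and 37.6% of the 22015 nuclear-encoded protein-coding genes. The other 5 Oas1 genes, which are not in the list, did not reach that level. Since the list was chosen with earlier results of these data known, the count of members detected is not a test. TPM is a length-scaled level with the same total in every library. The summed level of the 7 members was 280, 278 and 232 TPM, 263 ± 26.9 (SD, n = 3). Oasl2 and Oasl1 alone supplied 70.9% ± 2.42 of it (SD, n = 3), and the 3 Oas1 members 16.9% ± 1.18. The median member had 4.58 ± 0.27 on the log2(TPM + 1) scale (SD, n = 3), against 2.85 ± 0.10 over the 9148 genes with a mean of at least 1 TPM. A filter on level lies behind that second median, and a list chosen with earlier results known behind the first.

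**Figure D2:**
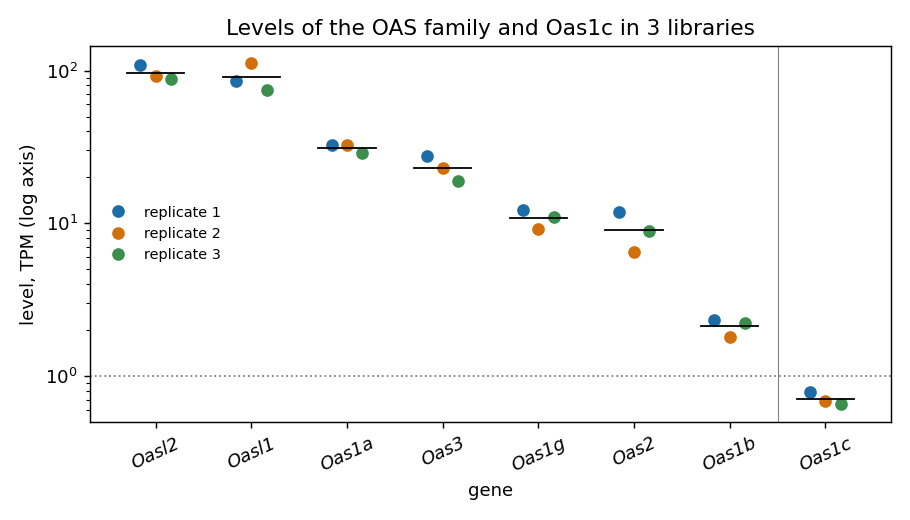
Level of each gene in TPM on a log axis, with 1 point per library and a bar at the mean of 3; the 7 members stand left of the vertical line, Oas1c right of it, and the dotted line is 1 TPM. Levels run over a range of 45.5-fold between Oasl2 and Oas1b, or 14.7-fold in the second quantification, which is not plotted, and Oas1c lies under the dotted line in every library.

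Among the canonical synthetases, Oas1a was highest. Oas1a (chr5:120896256-120907521, minus strand), an active synthetase, had 32.4, 32.7 and 28.8 TPM in replicates 1, 2 and 3, from 3013, 12562 and 5426 expected counts. Its CV of 6.93% in TPM was the lowest among the 7. Oas1g (chr5:120876142-120887613, minus strand), its closest copy, had 12.3, 9.22 and 11.0 TPM. Oas1b (chr5:120812635-120824163, plus strand), known as the gene behind resistance of some mouse strains to flaviviruses, had 2.34, 1.80 and 2.22 TPM, from 174, 470 and 303 counts. The 3 copies thus kept 1 order in every library, with no overlap between any pair.

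Oas1b is annotated as a polymorphic pseudogene, and its reading frame in the reference sequence, which is of the C57BL/6J strain, stops early. The coding stretches below come from the GENCODE M21 transcripts Oas1b-203, Oas1a-201 and Oas1g-201, and capitals mark the codon of Oas1b that ends its reading frame and the codon aligned with it in the other copies. They lie at chr5:120821287-120821349 on the plus strand, chr5:120899150-120899212 on the minus strand and chr5:120879177-120879239 on the minus strand.
Oas1b: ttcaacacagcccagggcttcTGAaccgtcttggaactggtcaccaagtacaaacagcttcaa
Oas1a: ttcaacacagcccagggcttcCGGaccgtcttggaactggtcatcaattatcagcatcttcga
Oas1g: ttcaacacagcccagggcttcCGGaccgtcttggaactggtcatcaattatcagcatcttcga

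The stop lies in exon 4 (chr5:120821308-120821310) after 252 codons, whereas Oas1a-201 and Oas1g-201 read through 367 codons each and have an arginine codon, number 258, at that place. Over these 63 bases Oas1b differed from each of the other copies at 9. Of the Oas1b transcripts, Oas1b-203, which contains this stop, held 1.82, 1.12 and 1.51 TPM, and Oas1b-202, a processed transcript of 558 bases from the first part of the gene, held 0.52, 0.68 and 0.71 TPM. Oas1b-201, which carries the protein-coding label, was listed at 0 in all 3 libraries.

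How far reads can be told apart differs between these copies. Oas1a and Oas1g share 96.7% of their coding bases, with 36 mismatches and no gap, and 68.0% of all 31-base windows of Oas1a-201 also occur in Oas1g-201. Oas1a and Oas1b share 81.1% of aligned coding bases and 36 windows. The authors' posterior SD of the count was above 0 for Oas1a and Oas1g alone among the members, at 11.6, 20.4 and 15.5 counts in replicates 1, 2 and 3 for both genes. It was 0 for the other 5, to which reads were assigned without sharing between genes. The Oas1a to Oas1g ratio was 2.90 on average over the 3 libraries in the gene table and 2.02 in the second quantification, a separate transcript table summed per gene, so the order held and the size of the gap did not.

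The other 5 Oas1 genes were near or at 0. Oas1c had 0.78, 0.69 and 0.65 TPM from 90, 309 and 141 counts, below 1 TPM in each library. Oas1h had 8, 5 and 6 counts, and Oas1d, a gene known from the mouse ovary, had 4 counts in replicate 2 and 0 in the others. Oas1e and Oas1f had 0 counts in all 3, which allows up to 0.0963, 0.0263 and 0.0503 CPM (counts scaled to library size) in replicates 1, 2 and 3, taken as 3 counts of each library and covering counting error only. These 5 genes together came to 0.76 ± 0.10 TPM (SD, n = 3).

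Oas3 and Oas2 encode longer synthetases built from repeated units, and Oas3 is known to favour long double-stranded RNA. Oas3 (chr5:120753098-120777661, minus strand) had 27.7, 22.9 and 18.8 TPM from 6811, 23242 and 9161 counts. Because its leading transcript is 4720 bases long, against 1885 for Oas1a-201, it took 19.2% of the members' counts but 8.75% of their TPM. Oas2 (chr5:120730333-120749853, minus strand) had 11.9, 6.46 and 8.86 TPM from 2155, 4889 and 3297 counts, and its CV of 29.95% in TPM was the widest of the 7. Replicate 2 was the lowest for Oas2, and replicate 3 for Oas3. A gene of uncertain class on the other strand, Gm43068, overlaps Oas2 by 1273 bases and had 64, 55 and 113 counts. The strand setting of the counting is not given in the sources used here, so reads of those 1273 bases cannot be assigned to either with certainty.

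Oasl2 and Oasl1 were the highest members. Oasl2 (chr5:114896936-114912234, plus strand) had 108, 92.4 and 87.7 TPM from 10007, 37634 and 16748 counts, 96.2 ± 10.9 (SD, n = 3). Oasl1 (chr5:114923240-114937915, plus strand) had 84.9, 112 and 74.9 TPM from 8777, 45030 and 14682 counts, 90.6 ± 19.2 (SD, n = 3). Oasl2 was higher in 2 of 3 libraries, replicate 2 having the opposite order, and the 3 values of each gene overlapped. Their order therefore depended on the library: without replicate 1 Oasl1 was the highest member, at 93.5 TPM. Oasl1 in turn exceeded Oas1a by 1.51 ± 0.23 (log2 ratio, SD, n = 3), with no overlap.

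Down the order of levels, 2 pairs of neighbours overlapped, Oasl2 with Oasl1 and Oas1g with Oas2. Oas1g was higher than Oas2 in 3 of 3 libraries, by 0.29 ± 0.23 on the log2 scale (SD, n = 3). The authors' credibility intervals of this pair were apart in 2 of 3 libraries. In replicate 1, where the ratio was 1.03, they overlapped, at 11.2 to 13.1 TPM for Oas1g and 11.1 to 12.4 TPM for Oas2. Oas1a exceeded Oas3 1.37-fold on average with no overlap, at 1.17-fold in replicate 1 and 1.53-fold in replicate 3. Oas3 exceeded Oas1g 2.12-fold and Oas2 exceeded Oas1b 4.17-fold on average, also with no overlap. In the second quantification Oas3 exceeded Oas1g 1.47-fold, and Oas2 was higher than Oas1b in 3 of 3 libraries but 1.30-fold on average, with overlapping values. An exact sign test over 3 libraries cannot give a two-sided p below 0.25, so none is given. The means followed the same order of 7 in the second quantification. It also held without replicate 2, where Oasl2 averaged 98.1 TPM, Oasl1 79.9, Oas1a 30.6, Oas3 23.2, Oas1g 11.7, Oas2 10.4 and Oas1b 2.28 TPM, and the 2 values of Oasl2 and Oasl1 then did not overlap.

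The level of single members differed between the quantifications for Oas1b and Oas1g. For this, TPM in each table was rescaled so that nuclear-encoded protein-coding genes alone made up the full TPM total. Oas1b then had rescaled levels of 41.7, 17.4 and 38.2 TPM in the second quantification against 9.96, 8.53 and 10.1 TPM in the first, a ratio of 3.41. Oas1g had 69.0 ± 13.3 against 48.7 ± 4.47 (SD, n = 3), a ratio of 1.42. The other 5 ratios lay between 0.941 and 1.03. Over 8275 detected protein-coding genes the ratio had a median of 1.01, and 95% of genes were at or below 1.32. The Oas1b value rests on few counts, and 68.6% of it in the second quantification was Oas1b-202.

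Spread between the libraries was measured on expected counts. Of the 7 members, 6 varied beyond counting error, against 62.1% of the 14037 genes tested and 72.6% of the 9090 tested genes with a mean of at least 1 TPM. Each gene's 3 counts were set against Poisson error by a chi-square statistic (2 degrees of freedom) on edgeR TMM library sizes, and p-values were adjusted by Benjamini-Hochberg over all genes tested, with a threshold of 0.05. Oas1g did not pass (edgeR library sizes, adjusted p = 0.114), but did among nuclear-encoded protein-coding genes tested alone (edgeR library sizes, adjusted p = 0.0287), at 29.4, 27.4 and 28.8 normalised CPM in replicates 1, 2 and 3. Oas1b passed with adjusted p = 0.0093 over edgeR library sizes. A test of this kind passes small differences in deeply counted genes, so its count says little about size.

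In normalised counts, the widest highest to lowest ratio among the members was that of Oasl1, which had 276, 407 and 246 normalised CPM, a ratio of 1.65, and 20.8% of tested genes had a larger ratio. Without replicate 2 its ratio was 1.12, and that of Oas3 was the widest. In TPM the widest ratio was that of Oas2, at 1.84. Oas2 had 67.7, 44.2 and 55.3, a ratio of 1.53. Oas3 had 214, 210 and 154, a ratio of 1.39, and Oasl2, Oas1a and Oas1b lay between 1.21 and 1.29. In normalised counts, replicate 2 was the highest library for Oasl2, Oasl1 and Oas1a and the lowest for Oas2 and Oas1b. It was also the lowest for Oas1g, which did not pass the test over all genes. In TPM, replicate 1 was the highest for Oasl2. The biological coefficient of variation is edgeR's estimate of spread beyond counting error, with each gene's value drawn toward those of other genes. Its median was 0.144 over the members, against 0.116 over genes with a mean of at least 1 TPM. Among all genes tested, 52.0% had a higher value than Oas3, the member at that median. Oas1g, which did not pass over all genes, still had 0.0993. Without replicate 2, Oas1a and Oas1b no longer passed, and without replicate 3, Oas3 no longer passed.

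**Figure D3:**
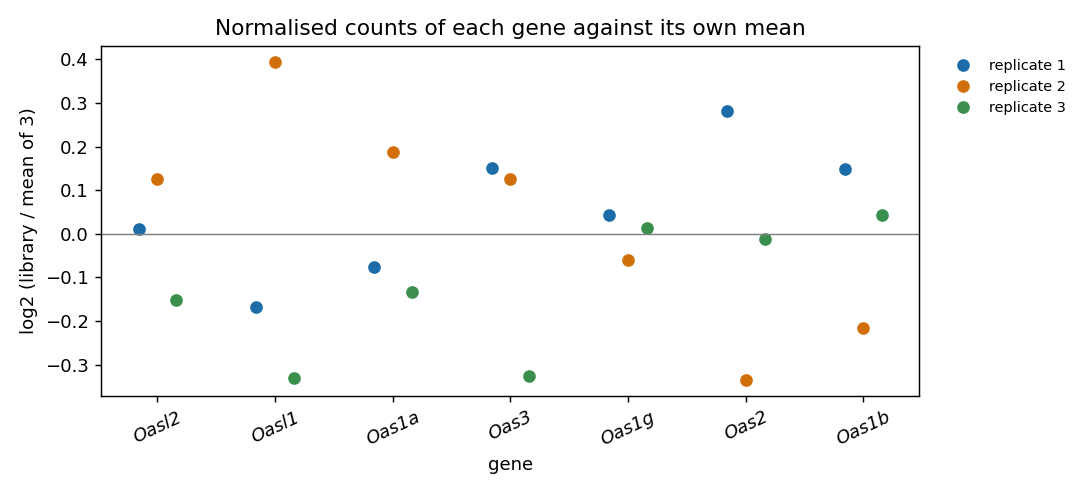
Normalised counts of each member as the log2 ratio of each library to the gene's own mean of 3, with 1 point per library. Replicate 2 is the top point for Oasl2, Oasl1 and Oas1a and the bottom point for Oas1g, Oas2 and Oas1b.

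For some members the leading transcript was one whose class is not protein coding. In Oasl2, the transcript Oasl2-205, annotated as a target of nonsense-mediated decay, held 52.9, 52.8 and 43.4 TPM, or 51.8% ± 4.65 of the gene (SD, n = 3). The full-length coding transcript Oasl2-201 held 16.6, 18.2 and 14.2 TPM, or 17.1% ± 2.29. Oasl2-204, a retained-intron transcript, was close to it at 19.6, 16.1 and 13.5 TPM, or 16.9% ± 1.37. In the second quantification the shares were 40.7% ± 3.40 for Oasl2-205, 19.9% ± 2.71 for Oasl2-201 and 11.7% ± 5.53 for Oasl2-204. Oasl2-205 was higher than Oasl2-201 in every library of both quantifications.

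In Oas1g, the transcript Oas1g-203, of the same class, held 6.09, 3.38 and 4.72 TPM and the coding Oas1g-201 held 4.69, 4.68 and 4.77 TPM, at 43.0% ± 6.45 and 44.1% ± 6.34 of the gene. Neither led in all libraries of the first quantification. In the second, Oas1g-203 had 51.7% ± 3.48 and Oas1g-201 18.7% ± 3.02 (SD, n = 3), apart in every library. In the first, the means were 4.73 and 4.71 TPM, and by counts Oas1g-201 was the higher in every library, with 461, 1894 and 949 counts against 430, 989 and 677 for Oas1g-203. Oasl2 and Oas1g are the only members with an annotated transcript of this class. Ranked by mean TPM, it led in both quantifications, for Oas1g by that small margin in the first. Of the 2567 detected protein-coding genes with such a transcript, 3.82% had one leading in both, and 5.1% and 5.88% in the first and second alone. With so few members of this kind, the comparison is not a test of the family.

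The letters that set these transcripts apart are few, and are shown for that reason, all from GENCODE M21 on the strand of the gene. Oasl2-205 leaves out exon 2 (289 bases, chr5:114899742-114900030) and joins exon 1 to exon 3, and Oas1g-203 extends exon 3 by 61 bases (chr5:120881824-120881884). Each line begins inside the shared exon, and capitals mark the annotated stop codon that follows the changed junction; the second line of each pair is the same start in the coding transcript, which reads on.
Oasl2-205: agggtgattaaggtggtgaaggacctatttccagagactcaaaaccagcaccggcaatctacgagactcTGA
Oasl2-201: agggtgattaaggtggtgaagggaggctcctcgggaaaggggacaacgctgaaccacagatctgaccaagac
Oas1g-203: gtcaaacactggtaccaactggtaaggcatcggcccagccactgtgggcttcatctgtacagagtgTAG
Oas1g-201: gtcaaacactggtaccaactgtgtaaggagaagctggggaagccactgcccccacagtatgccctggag

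Only 28 of the 1990 windows of 31 bases in Oasl2-205 occur in no other transcript of the members, against 215 of 3093 in Oasl2-201. Oasl2-205 also begins 806 bases after Oasl2-201, inside a first exon of 927 bases, so 1 junction and the place where its first exon begins set it apart. The stretch of 806 bases is part of the first exon of Oasl2-201, whose first codon begins at base 730. The annotated Oasl2-205 therefore begins after that codon, inside the coding sequence of Oasl2-201. The stretch holds 2 matches to the response element core searched above, at 273 to 264 and 244 to 235 bases before the start of Oasl2-205. Both lie in transcribed bases of Oasl2-201, and whether they act as a promoter was not tested. Oas1g-203 has 106 such windows of 1459 and Oas1g-201 has 278 of 1947. What part the annotation of starts and ends plays in these shares was not tested.

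Of the other members, Oas1a, Oas3, Oasl1 and Oas2 were mostly coding. Oas1a has 1 annotated transcript. Oas3-201 held 95.6% ± 1.72 of Oas3 and Oasl1-202 held 76.6% ± 3.27 of Oasl1 (SD, n = 3). The next transcripts were Oas3-202 with 2.01% and Oasl1-201 with 11.1%, both coding. Oas2-201 held 63.8% ± 3.46 of Oas2, followed by Oas2-204, a retained-intron transcript, with 16.2%, and by the coding Oas2-202 with 15.0%. In the second quantification Oas2-202 came next with 29.7%, against 7.54% for Oas2-204. Only 1 of the 3839 windows of Oas2-201 is its own. One transcript of Oasl1 differed between the quantifications: Oasl1-205, a processed transcript, held 2.28, 13.9 and 7.77 TPM, or 8.49% ± 5.13 of the gene, in the first and 0.248% ± 0.301 in the second.

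**Figure D4:**
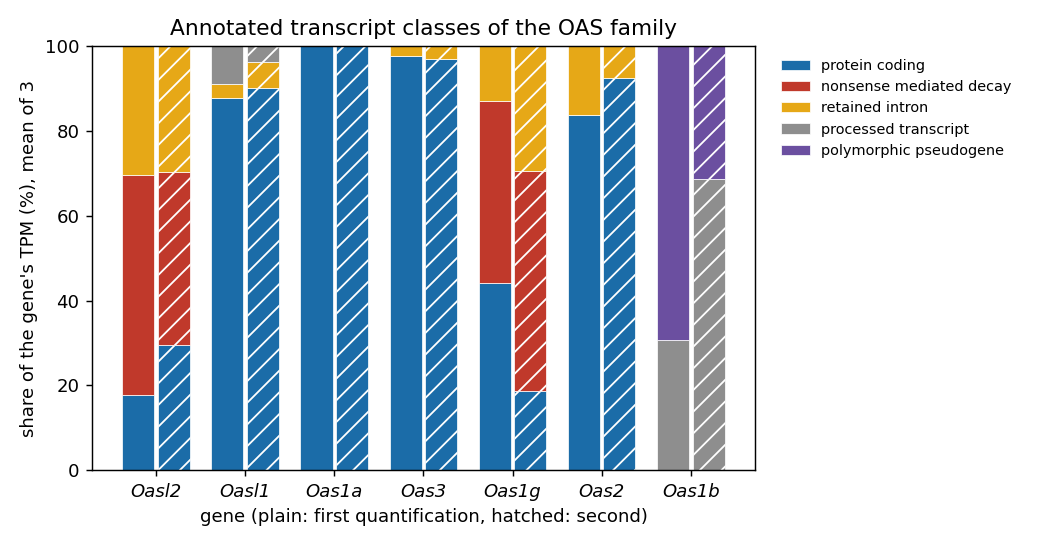
Share of each member's TPM, in percent and as the mean of 3 libraries, in transcripts of each annotated class, with plain bars for the first and hatched bars for the second quantification. Oasl2 and Oas1g are the members with a nonsense-mediated decay share, 51.8% and 43.0% in the first quantification, and Oas1b has no coding share in either.

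Retained-intron transcripts took a share of the members that differed between libraries. Summed over the 7 members they held 16.4%, 8.82% and 15.7% of TPM in replicates 1, 2 and 3, against 3.57%, 3.08% and 3.59% over all 8281 detected nuclear-encoded protein-coding genes. The summed share was mostly that of Oasl2 and is not a trait of the whole family. Of these 9 transcripts, the 4 of Oasl2 averaged 3.05 to 16.4 TPM, and those of other members 0.14 to 2.74 TPM. Oas1a and Oas1b have no transcript of this class. In Oasl2 the share was 35.1%, 22.4% and 33.9%, in Oasl1 4.04%, 1.27% and 4.48%, and in Oas3 2.67%, 1.00% and 3.41%. Replicate 2 was the lowest for these 3 genes, and also in the second quantification. Over all detected nuclear-encoded protein-coding genes replicate 2 was the lowest in both quantifications too, at 4.79%, 3.60% and 4.33% in the second. It was not the lowest for Oas1g, at 12.3%, 12.6% and 13.96%, or for Oas2, at 19.5%, 15.6% and 13.5%, in the first. In the second quantification replicate 2 was the lowest for Oas1g, at 34.7%, 22.2% and 31.7%, and replicate 3 for Oas2, at 10.3%, 6.44% and 5.94%.

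The clearest case was Oasl2-208, a retained-intron transcript of Oasl2 (chr5:114901834-114903941), with 96.4% of its windows found in no other transcript of the members. It held 9.78, 2.19 and 8.62 TPM, from 1033, 951 and 1841 counts in replicates 1, 2 and 3. In the second quantification it took 9.59%, 2.83% and 11.0% of the gene. Replicate 2 was again the lowest by either table. The same library was the lowest in the nuclear RNA Malat1, at 178 TPM against 741 and 812 TPM in replicates 1 and 3, and the part of this in the intron signal was not tested.

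**Figure D5:**
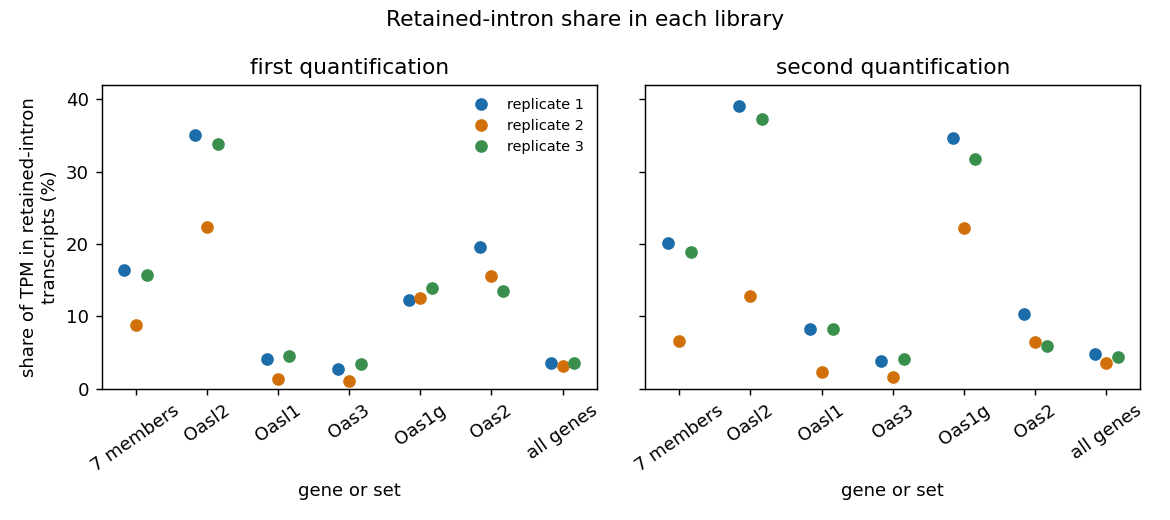
Share of TPM in retained-intron transcripts, in percent, with 1 point per library, for the 7 members together, for the 5 members with such transcripts and for all detected nuclear-encoded protein-coding genes, in the first (left) and second (right) quantification. Replicate 2 lies under the others for the 7 members together, for Oasl2, Oasl1 and Oas3, and for all detected genes in both panels.

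Of the listed pathway genes that are not members, all 21 were detected, against 37.6% of nuclear-encoded protein-coding genes. Of the 21, 18 varied beyond counting error, against 72.6% of tested genes with a mean of at least 1 TPM. This list too was chosen with earlier results of these data known, so its count of detected genes is not a test. The 7 members had a median of 23.1 TPM, against 3.21 TPM for the 3 genes of oligoadenylate turnover and related steps. The lowest of the 21 were Pde12, an enzyme that degrades oligoadenylates, at 2.40, 1.60 and 2.24 TPM, and Akap7, which in mice has a related activity, at 3.42, 2.93 and 3.28 TPM. Akap7 lay below every member but Oas1b, and Pde12 overlapped Oas1b, which had 1.80 to 2.34 TPM.

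The members' median of 23.1 TPM lay between those of the sensors and of the interferon arm. The 8 genes of double-stranded RNA sensing and editing had a median of 21.5 TPM and the 10 genes of interferon induction 28.8 TPM. The highest of the 21 was Irf1, a transcription factor of the early interferon response, at 212, 206 and 202 TPM, above every member. Ifih1, the sensor MDA5, had 80.3, 80.2 and 69.2 TPM. Irf7, whose translation Oasl1 holds back in mice, had 69.5, 54.5 and 46.5 TPM, and Ifnar2, a subunit of the type I interferon receptor, had 54.3, 49.6 and 54.5 TPM. All 3 of these overlapped no canonical synthetase of the family. Ifnb1, the interferon beta gene, was itself present at 34.0, 21.9 and 19.4 TPM.

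Genes most like the family in pattern were sought among 3326 genes with a mean of at least 10 TPM over the 3 libraries. By distance between deviations of log2(TPM + 1) from each gene's own mean, the nearest to the members' median were Tor1aip2, Ndufb11 and Aph1a, at distances of 0.0063, 0.0084 and 0.010. The median deviations were 0.17, -0.05 and -0.11 in replicates 1, 2 and 3, and 116 genes lay within a distance of 0.05, so 3 libraries single out none of them. By distance between levels, the nearest to Oasl2 were Naca, Rack1 and H2-T23, at 95.4 ± 10.8, 97.4 ± 11.8 and 98.0 ± 8.60 TPM (SD, n = 3).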

How the data were processed

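For each library, RSEM-style columns hold genes and transcripts and kallisto-style columns hold transcripts again, on mm10 and GENCODE M21, per the file headers and the listing beside them. Neither the aligner nor tool versions nor strand are given in the sources used here. The authors deposited expected counts, which need not be whole, TPM and FPKM, each scaled by length. The percent of a gene in each transcript is a deposited column too and was recomputed from transcript TPM. Bounds of the credibility interval, treated as a signal, and the posterior SD of the count are the authors' model estimates for 1 library, per the file headers. TPM keeps no depth, so depth is the total of expected counts, which was 31152786 in replicate 1, 114031592 in replicate 2 and 59693298 in replicate 3. Intervals and floors cover counting error only.

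Values were computed with Python 3.11.15, pandas 2.3.3, numpy 2.4.6 and scipy 1.17.1, and sequences were aligned with Biopython 1.88. For genes with a mean of at least 10, rounded expected counts went into an intercept-only dispersion fit after TMM scaling (edgeR 4.0.16, R 4.3.3). In a test on simulated Poisson counts over 13906 genes, the dispersion test recovered 70% of genes changed 1.25-fold and 88% of those changed 2-fold in a library. It made 7 false calls there, in counts without spread between libraries, whereas the real libraries had a coefficient of 0.216. From counts simulated with a coefficient set to 0.2, the dispersion fit returned 0.200. Kallisto-layout TPM was summed per gene and is called the second quantification. The rule for named genes was all members and other Oas1 genes, the 4 highest and 2 lowest of 21 pathway genes, the leading and next transcript of each member, and the 3 most alike genes by each of 2 measures. Oasl2-208, Oasl1-205, Ifnb1 and the 16-base run were named after their values were seen. The members, the pathway list and the cell type markers were chosen with earlier results of these data known. Some pathway genes are not reported here and are left out of the list. Alternatives were FPKM, TPM scaled to protein-coding genes, the second quantification, other thresholds, DESeq2 1.42.0 size factors and dispersions, and leaving out each replicate.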

Additional observations from a re-analysis of the deposited data

How the results depend on the processing

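No paired analysis was possible because the 3 libraries form 1 group and no comparison between groups can be made. Scale changed levels by construction: the summed member level of 263 TPM became 502 in FPKM and 1187 TPM when rescaled to protein-coding genes. The highest member, Oasl2, became 183 and 433, against 96.2 TPM. The second quantification, also in TPM, gave a sum of 106 TPM and 39.0 TPM for Oasl2, which is not a change of unit. With both quantifications rescaled to protein-coding genes, the ratio of second to first was 1.03 for Oasl2. It ranged from 0.941 for Oasl1 to 3.41 for Oas1b. Nuclear-encoded protein-coding genes held 23.5%, 21.1% and 22.0% of TPM in replicates 1, 2 and 3 of the first quantification. The median member became 5.48 with FPKM and 3.26 with the second quantification, against 4.58 on the log2 scale. Leaving out 1 replicate gave sums of 255 to 279 TPM, a highest member of 93.5 to 100.4 TPM and a median of 4.44 to 4.71. All 7 members were detected under every alternative except a threshold of 5 TPM, which left 6. The median share of the members' leading transcripts was 71.2%, 56.6% in the second quantification and 67.9% to 72.9% with a replicate left out.

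The count of genes that varied beyond counting error, 8717, became 5205 without replicate 2 and lay between 5205 and 6901 with 1 replicate left out. The coefficient of variation over all genes was 0.216, and 0.215 with DESeq2 size factors, 0.229 with no filter on low counts, 0.129 over protein-coding genes alone and 0.140 to 0.265 with a replicate left out, lowest without replicate 2. Of the members, 6 passed with DESeq2 size factors, with no filter and without replicate 1, 4 without replicate 2 and 5 without replicate 3. Among protein-coding genes alone, where Oas1b is not tested by its class, all 6 passed, Oas1g included. The cause was not tested. DESeq2 gave members coefficients of 0.0876 to 0.171, against 0.0993 to 0.190 in edgeR. The comparison of each member's rescaled level between quantifications, and its level without each replicate, were chosen after seeing the data. Among the members depth limits Oas1b most, with 174 counts in replicate 1. With 3 libraries of 1 group, no response to lipid A and no correlation between members can be tested.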
